A study of Mus musculus with 75 samples.

Results

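The 10 genes Dusp4, Dusp5, Dusp6, Spry1, Spry2, Spry4, Spred1, Etv4, Etv5 and Fosl1 were chosen by symbol as outputs and feedback inhibitors of RAS/MAPK signalling, and all 10 were found among the 55536 genes counted. Liver RNA of male C57Bl/6 mice was sequenced, and the drinking water of each dam held vehicle or the organotin tributyltin (TBT) up to weaning, at a daily 0.5 mg per kg of body weight or 3.07 µM. Mice of 3 weeks gave 8 vehicle and 8 TBT libraries. At 5 months there were 8 vehicle libraries, and the TBT libraries were 16 of low and 10 of high risk. Mice of 10 months gave 6 vehicle, 5 low-risk TBT, 6 high-risk TBT (uninvolved liver) and 7 TBT tumor libraries, and 1 vehicle library labelled as a tumor that entered no comparison. Risk refers to liver tumors, and the labels do not say how it was assigned to mice of 5 months. Tumor and uninvolved libraries with the same number came from the same mouse by their titles, although only 1 of 6 such pairs deviated together, and a tumor may hold cells other than tumor cells.

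The RAS/MAPK cascade carries signals from growth factor receptors through RAS, RAF, MEK and ERK to the nucleus, and it switches on the genes of its own inhibitors. Dual-specificity phosphatases remove phosphate from ERK and other MAP kinases, sprouty and SPRED proteins act at the level of RAS and RAF, and ETS factors of the PEA3 family and the AP-1 subunit encoded by Fosl1 belong to the transcriptional output. In liver this cascade is known for its part in regeneration and in tumors, and in mice chemically induced liver tumors often carry mutations of Hras or Braf. Mutations were not analysed here.

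Total counts ran from 2831666 to 45448610 per library, and depth sets the precision of the low genes. Levels are CPM, the usual unit of counts relative to the library total, scaled with TMM factors, and differences are edgeR log2 fold changes with their standard error (SE) and a p adjusted over every gene tested, with 0.05 as the threshold. In all, 6 libraries had under 5000000 counts, more than 35000 detected genes or a mitochondrial share over 10%, among them 5-month vehicle 9 and the vehicle library labelled as a tumor. The library labelled 3-week TBT 4 went against its sex label, with 313 CPM of Xist, while 4 genes of the Y chromosome summed to 6.36 CPM there and to 76.2 CPM or more in each of the other 72 samples. The 8 hepatocyte markers summed to at least 37200 CPM in every sample. The labels do not say that samples of a group came from separate litters, so p-values measure the spread between these samples.

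Per kb of exon, Dusp6 had the highest mean level of the 10 genes in each of the 9 groups, from 13.3 to 21.1 CPM per kb. Spred1 was next in each group, at 3.5 to 5.81 CPM per kb. Below them the order varied between groups. Spry1 had rank 3 or 4 in each, and group means were 1.41 to 3.87 CPM per kb for Spry1, 1.08 to 3.53 for Spry4 and 1.02 to 1.81 for Etv5. Group means of Dusp4 ran from 0.652 to 2.20, those of Dusp5 from 0.161 to 0.97 and those of Spry2 from 0.516 to 1.35 CPM per kb. Etv4 was ninth and Fosl1 last in each group. Etv4 had no count in 10 of 73 samples and at most 31 counts in any. Fosl1 had counts in 16 of 73 samples and at most 5 in any of them, so it was tested in no comparison. With 3 counts as the limit that a count of 0 allows, Fosl1 levels up to 0.0394 CPM in the deepest and 1.06 CPM in the shallowest sample were not detectable, and this limit covers counting error only.

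**Figure D1:**
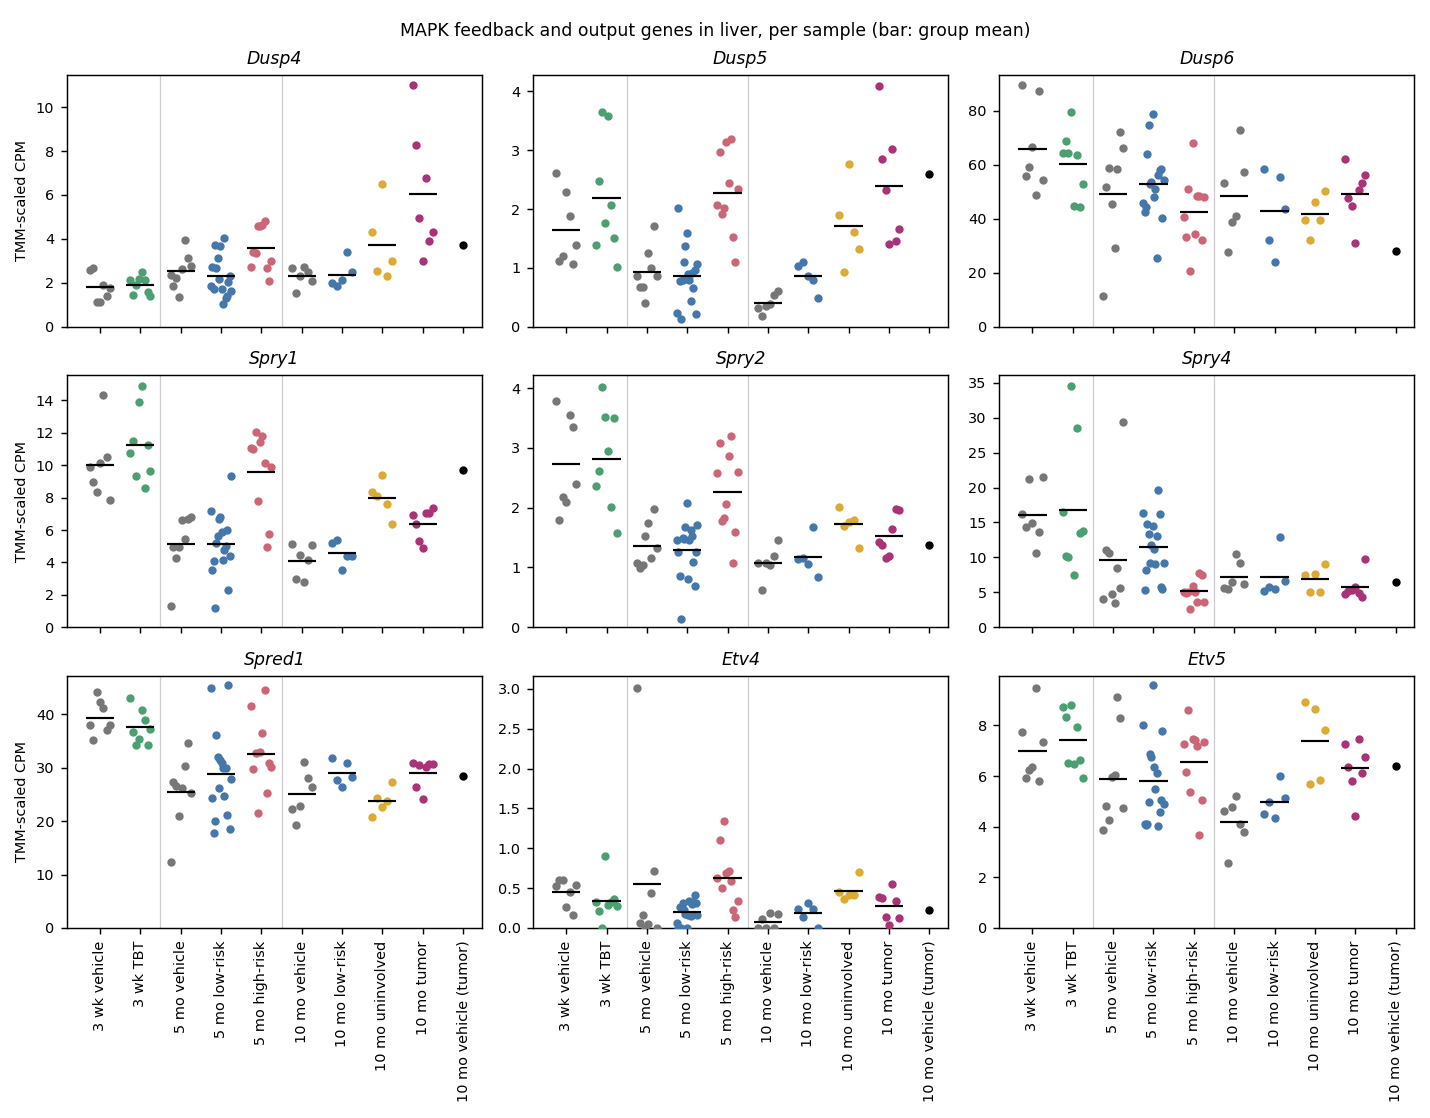
TMM-scaled CPM of 9 genes (y axes, linear from 0) in each sample of 10 groups (x axes), with 1 point per sample and a bar at the group mean. Dusp4 had its highest group mean in tumors. Dusp5 was high at 3 weeks, in 5-month high-risk livers, in 10-month uninvolved livers, in tumors and in the vehicle library labelled as a tumor. Spry1 and Spry2 were high at 3 weeks and again in 5-month high-risk and 10-month uninvolved livers, and Dusp6 overlapped between the groups of each age.

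Livers of 10 months show how the tumors differed from unexposed tissue. In tumor against vehicle, 4 of the 8 tested genes were called, all higher: Dusp4, Dusp5, Spry1 and Etv5. Of all 15293 genes tested, 45.9% were called, so this share was near the background. The median log2 fold change was 0.53 over the 8 genes and -0.01 over all genes. With TMM scaling 54.2% of the called genes were higher, and with library totals alone 89.5%, because the median of all genes then moved by 0.295 on the log2 scale.

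Dusp4 encodes a nuclear phosphatase of MAP kinases, and the gene lies at chr8:34807297-34819894 (GRCm38). In tumors 1, 3, 5, 6, 7, 11 and 12 its level was 4.97, 2.99, 6.79, 3.91, 4.32, 10.99 and 8.27 CPM. The 6 vehicles ran from 1.53 over a median of 2.38 to 2.73 CPM. Every tumor lay above every vehicle, and tumors 11 and 12 were the highest. Means were 6.03 ± 2.83 CPM in tumors (SD, n = 7) and 2.29 ± 0.448 CPM in vehicles (SD, n = 6). The log2 fold change was 1.37 (SE 0.27, adjusted p = 0.000922), and against low-risk livers it was 1.35 (SE 0.30, adjusted p = 0.00363).

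Dusp5 encodes a nuclear phosphatase of ERK and lies at chr19:53529109-53542431, where an antisense gene overlaps it. Its tumor levels were 2.32, 1.40, 3.02, 1.46, 1.67, 4.09 and 2.85 CPM in the same order of tumors, from 35 to 115 counts. Vehicles ran from 0.182 over a median of 0.37 to 0.604 CPM, on 5 to 14 counts. Again no tumor overlapped the vehicles, and tumor 11 was highest. Dusp5 had the largest log2 fold change of the tested genes in this comparison, 2.56 (SE 0.32, adjusted p = 3.07e-05). Against the 5 low-risk livers, which were at 1.09, 0.858, 0.795, 0.481 and 1.04 CPM in mice 2, 4, 8, 9 and 10, its log2 fold change was 1.5 (SE 0.30, adjusted p = 0.00202).

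Dusp6 encodes the cytoplasmic phosphatase of ERK and was not called. Tumor levels were 44.8, 31.0, 50.8, 53.2, 56.1, 62.1 and 47.6 CPM, and vehicles ran from 27.6 over 47.2 to 73.1 CPM. All tumors lay inside the range of the vehicles. The log2 fold change was 0.00 (SE 0.20, adjusted p = 0.987), and the difference from the changes of Dusp4 and Dusp5 was not tested.

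The promoter stretches of Dusp5, Dusp6 and Spry1 are shown because the first is the gene with the largest tumor difference, the second its relative without one, and the third the sprouty gene called most often. They are RefSeq windows of the build GRCm38.p6, 200 bases long, from 250 to 51 bases before the RefSeq start, on the strand of the gene. RefSeq windows matched 6 of the 10 genes. Capitals mark the ETS core GGAAG, which on the other strand reads CTTCC, and the CArG box, the site of serum response factor. On both strands the AP-1 site TGANTCA and the cyclic AMP element TGACGTCA were searched as well, and no motif found here overlapped another.
Dusp5, chr19:53528895-53529094, plus strand: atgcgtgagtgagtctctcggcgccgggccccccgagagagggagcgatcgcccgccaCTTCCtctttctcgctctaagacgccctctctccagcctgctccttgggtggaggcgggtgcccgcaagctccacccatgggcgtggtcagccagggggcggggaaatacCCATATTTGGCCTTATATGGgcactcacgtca
Dusp6, chr10:99262981-99263180, plus strand: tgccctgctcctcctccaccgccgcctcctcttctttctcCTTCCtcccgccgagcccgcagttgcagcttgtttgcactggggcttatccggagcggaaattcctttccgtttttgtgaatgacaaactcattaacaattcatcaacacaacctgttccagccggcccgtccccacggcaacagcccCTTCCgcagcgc
Spry1, chr3:37639697-37639896, plus strand: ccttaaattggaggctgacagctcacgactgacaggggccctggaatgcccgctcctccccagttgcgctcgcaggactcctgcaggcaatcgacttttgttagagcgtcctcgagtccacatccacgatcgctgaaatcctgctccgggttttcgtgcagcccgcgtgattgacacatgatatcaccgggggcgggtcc
The Dusp5 stretch held 2 adjoining CArG boxes and 1 GGAAG, the Dusp6 stretch 2 GGAAG, and the Spry1 stretch none of the 4 motifs. Of 32851 windows of that length, 1.16% held a CArG box, 55% GGAAG, 5.57% TGANTCA and 0.828% TGACGTCA. A match describes the letters and not a bound site.

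Among the sprouty genes, whose proteins restrain receptor tyrosine kinase signalling, only Spry1 was called in tumors. It lies at chr3:37639947-37644598 and is overlapped by an antisense gene, and whether the counting used strand is not stated, so reads of antisense partners cannot be told apart from it, nor those at Dusp5, Spry4 and Fosl1. Spry1 was at 5.30, 4.87, 7.03, 7.03, 7.35, 6.90 and 6.35 CPM in tumors 1, 3, 5, 6, 7, 11 and 12, and at 2.80 to 5.11 CPM in vehicles around a median of 4.28. In 6 of 7 tumors it exceeded every vehicle, and tumor 3 lay inside their range. The log2 fold change was 0.63 (SE 0.16, adjusted p = 0.00506), and against low-risk livers it was 0.49 (SE 0.14, adjusted p = 0.0141).

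Spry2 was at 1.16 to 1.97 CPM in tumors around a median of 1.42, and at 0.618 to 1.47 CPM in vehicles around 1.07. Its log2 fold change of 0.49 (SE 0.21) did not pass, with an adjusted p of 0.0723, whereas without vehicle 7 it was 0.61 (adjusted p = 0.0405) and with library totals 0.78 (0.0061). Spry4 was at 5.40, 5.71, 4.94, 4.35, 9.75, 4.77 and 5.18 CPM in tumors 1, 3, 5, 6, 7, 11 and 12 and at 5.53 to 10.5 CPM in vehicles. It lay below all vehicles in 5 of 7 tumors, while tumor 7 was near the top of their range. The log2 fold change of Spry4 was -0.36 (SE 0.21, adjusted p = 0.177), and without tumor 7 it was -0.53 with an adjusted p of 0.0153.

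Spred1, whose protein brings the RAS inactivator neurofibromin to the membrane, was at 24.1 to 30.9 CPM in tumors and 19.3 to 31.1 CPM in vehicles. Its log2 fold change was 0.19 (SE 0.11, adjusted p = 0.147), and without vehicle 5 it was 0.27 with an adjusted p of 0.0408. Etv5, an ETS factor of the PEA3 family, was at 5.79, 4.43, 7.47, 6.12, 6.75, 7.25 and 6.35 CPM in tumors 1, 3, 5, 6, 7, 11 and 12. Vehicles ran from 2.58 over 4.36 to 5.22 CPM, so 6 of 7 tumors lay above all of them. Its fitted log2 fold change was 0.57 (SE 0.16, adjusted p = 0.0095). Its relative Etv4 had 4, 1, 16, 10, 3, 11 and 11 counts in these tumors and 0 to 5 counts in vehicles, and was too low to be tested there. In tumor against low-risk livers 3 of 8 genes were called, Dusp4, Dusp5 and Spry1, where 36.7% of all genes were called. The share of called genes that were higher was 58.2% with TMM scaling and 87.5% with library totals, and with library totals 6 of the 8 were called.

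The vehicle library labelled as a tumor, from a single mouse, held 3.74 CPM of Dusp4, 2.59 CPM of Dusp5, 9.69 CPM of Spry1 and 6.41 CPM of Etv5. Each of these was above all 6 vehicles, while Dusp6 at 28.0 CPM and Spry4 at 6.49 CPM were inside their range. Counted as a vehicle, it left 2 calls in tumor against vehicle, Dusp4 and Dusp5. The mitochondrial share of this library was 14.1%, and the share of all genes that lay above all 6 vehicles in it was not counted.

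**Figure D2:**
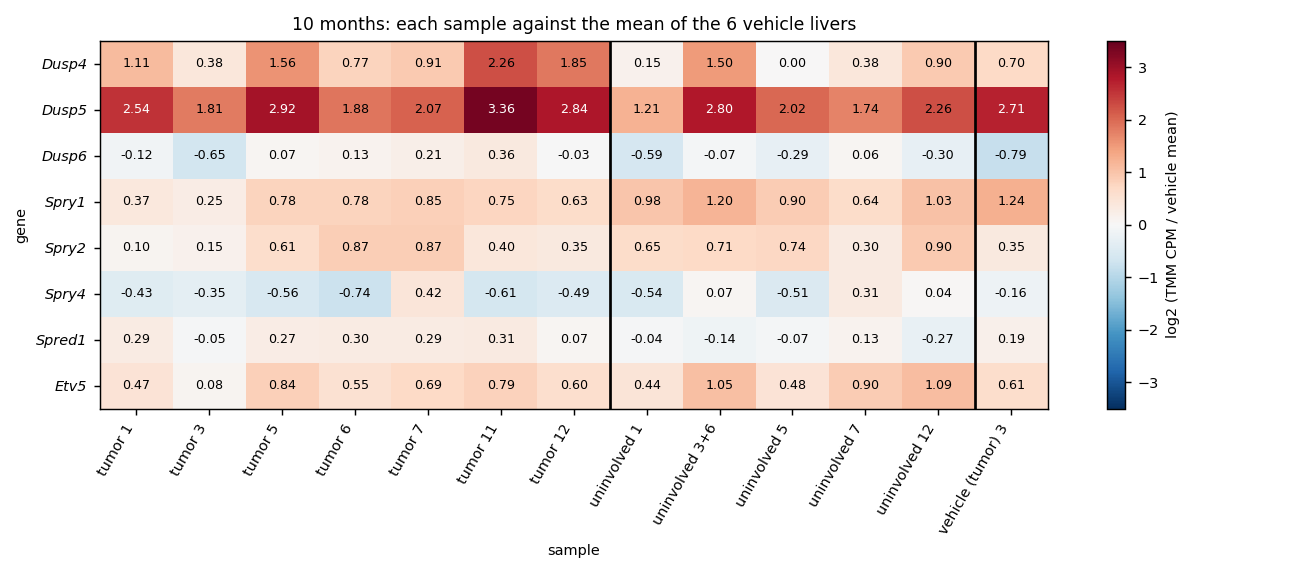
Log2 ratio of TMM-scaled CPM in each 10-month tumor, uninvolved liver (3+6 is the sum of a pair of libraries) and the vehicle library labelled as a tumor (columns) to the mean of the 6 vehicles, for 8 genes (rows), with red above and blue below the vehicles. Dusp5 was above the vehicle mean in every column, from 1.21 in uninvolved liver 1 to 3.36 in tumor 11, and Dusp6 stayed between -0.79 and 0.36.

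Tumors differed among themselves most in Etv4, over a 13.7-fold range on few counts, followed by Dusp4 with a 3.67-fold and Dusp5 with a 2.93-fold range. Spred1 varied least, over 1.28-fold. Tumor 11 was highest in 4 of 9 genes, and tumor 3 was lowest in 7 of 9. Among marker sums, tumor 3 had the highest sum of 8 proliferation markers, 171 CPM, and tumor 7 the lowest, 12.6 CPM. Sums of 8 stellate cell and fibroblast markers were 376 CPM in tumor 3, the lowest, and 530 CPM in tumor 11. The part of these cells in the differences between tumors was not tested.

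Uninvolved liver of high-risk mice was higher than vehicle liver in 5 of 8 tested genes, namely Dusp4, Dusp5, Spry1, Spry2 and Etv5, with 0 lower. Of all 16338 genes 57.7% were called, so this share too was near the background. The median log2 fold change was 0.62 over the 8 genes and 0.06 over all genes. Etv4 was a ninth gene in this fit, but it passed the filter on low counts only through its level in uninvolved liver, so it is left out of these counts and described without its test. Of all called genes 54% were higher with TMM scaling and 82.6% with library totals, which moved the median by 0.319. Uninvolved libraries 3 and 6 differed by less than any other pair of libraries within a group and were counted as 1 sample, which left 5 samples. They may come from 1 liver, against their numbers, and this was not tested.

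Dusp5 was at 0.921, 2.77, 1.61, 1.33 and 1.90 CPM in uninvolved livers 1, 3+6, 5, 7 and 12, each above every vehicle, with a log2 fold change of 2.03 (SE 0.32, adjusted p = 5.28e-05). Spry1 was at 8.07, 9.37, 7.62, 6.38 and 8.35 CPM, also above every vehicle, with a log2 fold change of 0.89 (SE 0.16, adjusted p = 0.000146). Etv5 was at 5.69, 8.64, 5.84, 7.81 and 8.92 CPM, and all 5 values exceeded the vehicles. Its log2 fold change was 0.75 (SE 0.17, adjusted p = 0.00117).

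Etv4 had 20, 31, 18, 27 and 16 counts in uninvolved livers against 0 to 5 in vehicles and 0 to 8 in low-risk livers. Uninvolved libraries were deeper than these, and 31 is the sum of libraries 3 and 6. Relative to depth, Etv4 was at 0.369 to 0.703 CPM in uninvolved livers, 0 to 0.192 CPM in vehicles and 0 to 0.312 CPM in low-risk livers. Of the 6 vehicles 3 had no count of it. Spry2 was at 1.70, 1.76, 1.80, 1.33 and 2.02 CPM, and 4 of 5 lay above all vehicles. Its log2 fold change was 0.61 (SE 0.22, adjusted p = 0.0252), and without vehicle 2 the adjusted p was 0.0553. Dusp4 was at 2.54, 6.49, 2.30, 3.00 and 4.29 CPM, so only 3 of 5 exceeded the vehicles. Its call (log2 fold change 0.63, SE 0.25, adjusted p = 0.0383) ended without uninvolved 3+6, where the log2 fold change was 0.35 with an adjusted p of 0.171. It also ended without uninvolved 12 or without vehicle 2, 4, 6 or 7, with adjusted p from 0.0502 to 0.0844. With the tumor-labelled vehicle library among the vehicles, only Spry1 and Etv5 stayed called of the genes counted, where 6019 of all 16567 genes were called. Etv4 was called too, but its test is left out of the counts as above.

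Against low-risk livers of 10 months, 4 of the 8 genes were called in uninvolved livers, where 52.4% of all genes were called. Dusp5 (0.95, SE 0.32, adjusted p = 0.0186), Spry1 (0.75, SE 0.17, adjusted p = 0.00133) and Etv5 (0.52, SE 0.18, adjusted p = 0.0201) were higher on the log2 scale. Spred1 was lower by a log2 fold change of -0.33 (SE 0.12, adjusted p = 0.0245). Low-risk livers had 29.0 ± 2.22 CPM of Spred1 (SD, n = 5) and uninvolved livers 23.8 ± 2.38 CPM (SD, n = 5). The Spred1 call was lost with library totals (log2 fold change -0.08, adjusted p = 0.646), a scaling that moved the share of higher genes among all calls from 52.8% to 78.8%. It was also lost without low-risk 10 and without uninvolved 1, 12 or 3+6, with adjusted p from 0.0559 to 0.0621. The Dusp5 call ended without low-risk 9 (adjusted p = 0.0528) or uninvolved 3+6 (adjusted p = 0.0552). Calls were gained as well. With DESeq2 Spry2 (log2 fold change 0.52, adjusted p = 0.0475) and Dusp4 (0.60, 0.049) were called, and both were also called by edgeR with library totals, without low-risk 8 or without uninvolved 7. Dusp4 was called without uninvolved 1 or 5 too.

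The comparison of tumors with uninvolved liver asks whether these genes differed between tumor and the surrounding tissue. With Etv4 left out of the counts as above, none of the 8 tested genes passed, against 18.1% of all 16362 genes called. At an unadjusted p under 0.05 stood 3 of the 8, which were Dusp4, Spred1 and Spry1, and 5708 of all 16362 genes, so this share was near the background. DESeq2 called 1 of the 8, Spred1, and 3927 of all 16362 genes. Dusp4 had a log2 fold change of 0.71 (SE 0.32, adjusted p = 0.132), Spred1 0.29 (SE 0.10, adjusted p = 0.0656) and Spry1 -0.30 (SE 0.13, adjusted p = 0.123).

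In 4 mice both tissues could be set side by side as separate samples. In mice 1, 5, 7 and 12 Dusp4 was at 4.97, 6.79, 4.32 and 8.27 CPM in the tumor and at 2.54, 2.30, 3.00 and 4.29 CPM in the uninvolved liver. Dusp4, Dusp5, Dusp6 and Spred1 were higher in the tumor in 4 of 4 mice, whereas Spry1, Spry2 and Etv4 were so in 1 of 4. Spry4, Etv5 and Fosl1 were higher in the tumor in 2 of 4, with few counts of Fosl1. The share of all genes that were higher in the tumor in 4 of 4 mice was not counted. These directions are therefore no result about the genes as a set. With the mouse as a replicate block in these 4 mice, Dusp4 (log2 fold change 1.01, adjusted p = 0.0219) and Dusp6 (0.32, adjusted p = 0.0494) were called. This fit called 3037 of all 16728 genes. With the block over 6 mice, which takes libraries 3 and 6 as 2 mice, Spred1 alone of these genes was called, at 0.32 (adjusted p = 0.039). Here 1920 of all 16404 genes were called. Without uninvolved 3+6 the unpaired fit called Dusp4 (0.98, adjusted p = 0.0427), and without tumor 3 or uninvolved 7 it called Spred1 (adjusted p = 0.0471 and 0.043). Over all genes these fits called 3948 of 16825, 2638 of 16197 and 1611 of 16525.

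**Figure D3:**
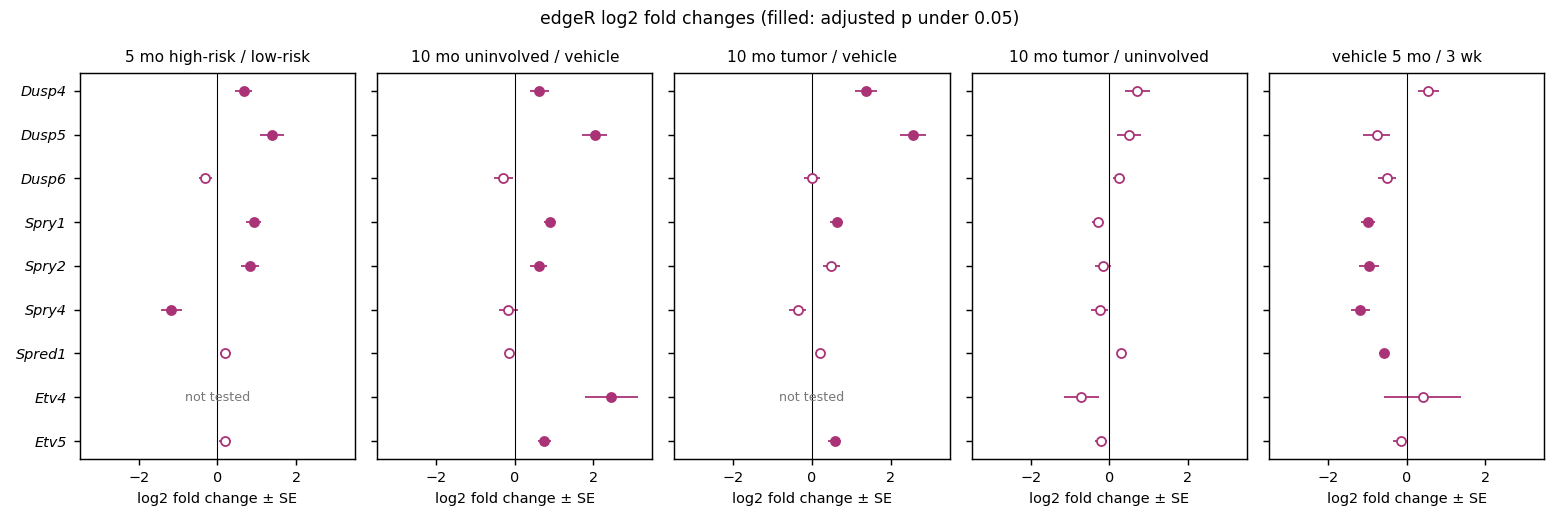
Log2 fold changes with their SE (x axes) of 9 genes (rows) in 5 comparisons (panels), where filled points passed an adjusted p of 0.05 in edgeR. Dusp4 and Dusp5 were right of 0 and filled in the first 3 panels, and no point was filled in tumor against uninvolved liver. Etv4 passed the count filter at 10 months only through uninvolved liver, so its points there are no independent call.

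At 5 months, before the labels name any tumor, 5 of 8 tested genes were called in high-risk against low-risk livers, where 38.9% of all 14773 genes were called. Dusp4, Dusp5, Spry1 and Spry2 were higher and Spry4 was lower. The median log2 fold change was 0.43 over the 8 genes and -0.01 over all genes. Of all called genes 52.3% were higher with TMM scaling and 86.1% with library totals, which moved the median by 0.314 and added calls of Spred1 and Etv5.

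Dusp5 ran from 1.11 over a median of 2.21 to 3.20 CPM in the 10 high-risk livers and from 0.133 over 0.839 to 2.01 CPM in the 16 low-risk livers. In 7 of 10 high-risk livers it exceeded every low-risk liver, and the log2 fold change was 1.39 (SE 0.30, adjusted p = 0.000327). Spry1 ran from 4.97 over 10.5 to 12 CPM against 1.2 over 5.12 to 9.32 CPM, with 7 of 10 above all low-risk livers. Its log2 fold change was 0.92 (SE 0.19, adjusted p = 0.000276). Spry2 ran from 1.07 over 2.32 to 3.20 CPM against 0.133 over 1.46 to 2.08 CPM, a log2 fold change of 0.82 (SE 0.23, adjusted p = 0.00514). Dusp4 ran from 2.07 over 3.37 to 4.83 CPM against 1.01 over 2.10 to 4.06 CPM, so the groups overlapped widely, and its log2 fold change was 0.66 (SE 0.22, adjusted p = 0.0146).

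Spry4 went the other way from its relatives. It ran from 2.69 over 5.03 to 7.72 CPM in high-risk and from 5.38 over 11.4 to 19.6 CPM in low-risk livers, with 7 of 10 high-risk livers below all low-risk ones. The log2 fold change of Spry4 was -1.17 (SE 0.26, adjusted p = 0.000501). Dusp6 (-0.31, SE 0.17, adjusted p = 0.135), Spred1 (0.20, SE 0.13, adjusted p = 0.228) and Etv5 (0.20, SE 0.16, adjusted p = 0.316) did not pass. Etv4 was at 0.138 to 1.34 CPM in high-risk and at 0 to 0.409 CPM in low-risk livers, on at most 25 counts, and was too low to be tested.

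These 5-month libraries came from both sequencing batches, with 3 high-risk and 6 low-risk libraries in batch 1 and 7 and 10 in batch 2. Within batch 1, where 773 of all 16465 genes were called, only Spry1 was called, at a log2 fold change of 1.37 (adjusted p = 0.0294). Dusp5 had 1.45 there (adjusted p = 0.205), Spry2 1.16 (0.19), Spry4 -1.13 (0.104) and Dusp4 0.27 (0.741). Within batch 2, where 5403 of all 19245 genes were called, Dusp5 (1.31, adjusted p = 0.00319), Spry1 (0.65, 0.0247), Dusp4 (0.81, 0.0298) and Spry4 (-1.18, 0.00135) were called, and Spry2 was not (0.62, 0.0781). All 5 genes kept their direction in both batches, but they were picked by their calls in the fit of both batches together. Their directions within each batch are therefore no independent support.

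Against 5-month vehicles, high-risk livers were higher in Dusp5 (log2 fold change 1.26, SE 0.40, adjusted p = 0.0284) and Spry1 (0.85, SE 0.25, adjusted p = 0.0189) and lower in Spry4 (-1.08, SE 0.30, adjusted p = 0.0143), 3 of 8 genes where 15.8% of all genes were called. Among all calls 53.4% were higher with TMM scaling and 93.5% with library totals, which moved the median by 0.369. Spry4 was at 29.3 CPM in vehicle 8, the only vehicle of batch 2, and at 3.48 to 11.1 CPM in the other 7 vehicles. Within batch 1 its log2 fold change was -0.51 (adjusted p = 0.579), that of Dusp5 was 1.23 (0.424) and that of Spry1 1.18 (0.129). None of the 3 genes passed there, nor did any of all 16465 genes tested. With the number as a replicate block over 3 pairs, which deviated together, 0 of 8 and 0 of all 14423 genes were called. With this block the log2 fold change was 0.91 for Dusp5, 0.87 for Spry1 and -0.21 for Spry4. Without the technically deviating libraries the adjusted p of Spry1 was 0.0675.

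No call among these genes was made between exposed mice of low risk and vehicles. In low-risk against vehicle livers 0 of 8 genes passed at 5 months and, with Etv4 left out, 0 of 8 at 10 months. Of all genes 0% were called by edgeR at both ages, with 934 and 688 genes at an unadjusted p under 0.05. DESeq2 called 52 genes at 5 months and 1 at 10 months over the whole table, and 0 of these genes at both. Dusp5 of 10-month low-risk livers was above all vehicles in 4 of 5 samples, with a log2 fold change of 1.08 (SE 0.34) that did not pass, and it was the only gene of these at an unadjusted p under 0.05 at 10 months, with 0 at 5 months. At 3 weeks 0 of 8 genes and 0% of all genes were called in TBT against vehicle livers, with 474 genes at an unadjusted p under 0.05, of which 0 are among these 8, while DESeq2 called 2 genes and 0 of the 8. The largest of the 8 log2 fold changes at 3 weeks was 0.41 for Dusp5 (SE 0.29). Without the library labelled 3-week TBT 4 it was 0.45, and 0 of 8 were called.

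The risk difference (uninvolved minus low-risk at 10 months, high-risk minus low-risk at 5 months) was compared between ages as an interaction. With Etv4 left out, none of the 8 genes passed, and 0.353% of all genes did, with DESeq2 calling 0 of the 8. Spry4 had the largest interaction of the 8, 1.06 (SE 0.43, adjusted p = 0.319), as it was lower in high-risk livers at 5 months and at -0.12 (SE 0.26) in uninvolved livers at 10 months. At an unadjusted p under 0.05 stood 2 of the 8, which were Spry4 and Spred1, and 1958 of all 17572 genes.

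Ages were compared among vehicle livers of batch 1. From 3 weeks to 5 months 4 of 9 genes fell, Spry1 (-0.99, SE 0.18, adjusted p = 0.000273), Spry2 (-0.96, SE 0.25, adjusted p = 0.00658), Spry4 (-1.17, SE 0.23, adjusted p = 0.000805) and Spred1 (-0.59, SE 0.11, adjusted p = 0.000379), where 24.2% of all genes were called. Spry1 went from 10.0 ± 2.13 CPM (SD, n = 7) to 4.88 CPM in the 7 vehicles of batch 1, and Spry1 and Spred1 did not overlap between these ages. Among all calls 49.1% were higher with TMM scaling and 22.4% with library totals, which moved the median by -0.171. Of 7 endothelial markers 7 were lower at 5 months, as were 8 of 8 proliferation markers, 5 of 8 stellate cell markers and 5 of 7 macrophage markers. The endothelial sum was 500 to 591 CPM at 3 weeks and 142 to 450 CPM in all 5-month vehicles, and its part in the sprouty genes was not tested. From 5 to 10 months Dusp5 (-1.31, SE 0.38, adjusted p = 0.0263) and Etv5 (-0.62, SE 0.19, adjusted p = 0.0342) fell, 2 of 9 genes where 14.1% of all genes were called. Only the Dusp5 call stood with library totals.

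Other cell types moved with the same group differences, and in bulk liver a change in the number of cells of a type and a change in RNA per cell cannot be told apart. In tumors against vehicles 8 of 8 proliferation markers were higher (summed level 12.6 to 171 against 4.66 to 19.3 CPM), as were 6 of 7 cholangiocyte markers (35.4 to 84.2 against 15.3 to 22.3 CPM), 5 of 8 stellate cell and fibroblast markers (376 to 674 against 175 to 333 CPM) and 4 of 7 tested T, B and plasma cell markers. Of 8 hepatocyte markers 5 were lower there, as was 1 stellate cell and fibroblast marker. Endothelial markers were higher in 3 and lower in 3 of 7, and macrophage markers higher in 1 and lower in 2 of 7. In uninvolved livers against vehicles 8 of 8 proliferation markers were higher (14.1 to 113 against 4.66 to 19.3 CPM), as were 7 of 7 cholangiocyte markers (38.3 to 74.1 against 15.3 to 22.3 CPM) and 5 of 7 tested T, B and plasma cell markers (34 to 57.1 against 20.3 to 41 CPM). Of 8 stellate cell and fibroblast markers 6 were higher and 1 lower (433 to 671 against 175 to 333 CPM), and of 7 endothelial markers 3 were higher and 2 lower. Of 7 macrophage markers 4 were lower and 1 higher (189 to 407 against 332 to 449 CPM), and of 8 hepatocyte markers 4 were lower and 1 higher (71400 to 112000 against 112000 to 139000 CPM). The mitochondrial share was 4.2 to 5.85% in uninvolved libraries, 3.14 to 3.83% in vehicles, 2.94 to 3.08% in low-risk livers and 2.64 to 3.46% in tumors, so that uninvolved libraries overlapped none of the others. In 5-month high-risk against low-risk livers 8 of 8 proliferation markers (31 to 269 against 6.79 to 44.5 CPM), 7 of 8 stellate cell and fibroblast markers (491 to 1290 against 204 to 430 CPM) and 4 of 7 cholangiocyte markers (21.2 to 81.5 against 15.8 to 228 CPM) were higher. At 5 months 1 stellate cell and fibroblast marker was lower. Hepatocyte markers were lower in 4 and higher in 1 of 8 at this age, and endothelial markers lower in 3 and higher in 2 of 7. Macrophage markers were higher in 2 and lower in 1 of 7, and T, B and plasma cell markers higher in 4 of 7 tested. No marker of these lists was at 0 throughout these groups. The part of these cells and of the mitochondrial share in the 10 genes was not tested.

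The genes of most similar level across samples were taken from all genes of at least 1 CPM on average. Over 72 samples and 12301 genes, the mean standardised log2 CPM of the 10 genes was most like Pam (Pearson r 0.822), Nid1 (0.807), Fbln5 (0.807), Fstl1 (0.804) and Rhoj (0.8). Nid1 encodes the basement membrane protein nidogen and Fbln5 the elastic fibre protein fibulin. Each of the 10 genes was set against the mean of the other 9. Pearson r was 0.743 for Spry1, 0.728 for Spry2, 0.697 for Dusp5, 0.694 for Etv5 and 0.578 for Spred1. It was 0.366 for Etv4, 0.265 for Dusp6, 0.0763 for Dusp4, 0.0485 for Spry4 and -0.0156 for Fosl1, of which Etv4 and Fosl1 had few counts. These correlations describe samples that share batches, ages and groups.

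Other genes of the pathway were counted in the same fits, in lists written from general knowledge but with earlier results of these data known. The counts of these lists are therefore no independent support. Of 29 receptors, adaptors and kinases, 7 were higher and 7 lower in tumors against vehicles, and 6 were higher and 5 lower in 5-month high-risk against low-risk livers. Over all genes 45.9% and 38.9% were called in these comparisons, so the shares of this list were near the background. The hepatocyte growth factor receptor Met was lower in both, by log2 fold changes of -0.78 (SE 0.10, adjusted p = 3.89e-05) and -0.79 (SE 0.13, adjusted p = 1.35e-05). In tumors Fgfr1 (1.43, SE 0.22) and Nras (0.46, SE 0.08) were higher. In 5-month high-risk livers Mapk3, which encodes ERK1, was higher (0.44, SE 0.10) and the receptor Erbb3 lower (-0.55, SE 0.13).

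Of 9 tested growth factor ligands, 3 were higher and 2 lower in tumors, and 5 were higher and 1 lower in 5-month high-risk livers. The shares called over all genes were 45.9% and 38.9%. Btc, a ligand of the EGF receptor, was at 16.1 ± 10.8 CPM in tumors (SD, n = 7) and 3.51 ± 0.823 CPM in vehicles (SD, n = 6), a log2 fold change of 2.17 (SE 0.41). Hbegf (1.75, SE 0.26) and Tgfa (0.44, SE 0.08), which bind the same receptor, were higher in tumors too. In 5-month high-risk livers Btc (1.70, SE 0.27) and Hgf (0.51, SE 0.13) were higher and Fgf1 lower (-1.18, SE 0.21). Each of these passed an adjusted p of 0.05.

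Immediate early genes, which respond to MAPK activity within a short time, were higher in 7 of 11 tested in each of these comparisons, with 0 lower. Of all genes 45.9% were called in tumors against vehicles and 38.9% in 5-month high-risk against low-risk livers, with 3800 of 15293 and 3005 of 14773 higher. Atf3 was at 9.36 ± 5.12 CPM in tumors (SD, n = 7) and 0.848 ± 0.265 CPM in vehicles (SD, n = 6), a log2 fold change of 3.43 (SE 0.36, adjusted p = 1.12e-05). Egr2 (2.81, SE 0.37) and Ier3 (2.16, SE 0.39) were also among the first 3 in tumors. Myc (2.02, SE 0.30), Atf3 (2.36, SE 0.41) and Ier3 (1.42, SE 0.26) led in 5-month high-risk livers.

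Further feedback and output genes were higher in 8 and lower in 1 of 20 tested in tumors, and higher in 8 and lower in 1 of 18 in 5-month high-risk livers. Over all genes 45.9% and 38.9% were called, so the share of this list in tumors was near the background. Ccnd1, which encodes cyclin D1 and drives entry into the cell cycle, was at 83.5 ± 19.8 CPM in tumors (SD, n = 7) and 9.87 ± 3.03 CPM in vehicles (SD, n = 6), a log2 fold change of 3.06 (SE 0.21, adjusted p = 5.06e-07). Emp1 (3.29, SE 0.23) and Ier5 (1.74, SE 0.24) were higher in tumors. At 5 months Ccnd1 (1.82, SE 0.31) and Emp1 (2.76, SE 0.50) were higher and Lrig1, which encodes an inhibitor of EGF receptors, was lower (-0.70, SE 0.12). In tumor against uninvolved liver 0 of 12 immediate early genes and 2 of 21 further genes, both lower, passed, where 18.1% of all genes were called.

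**Figure D4:**
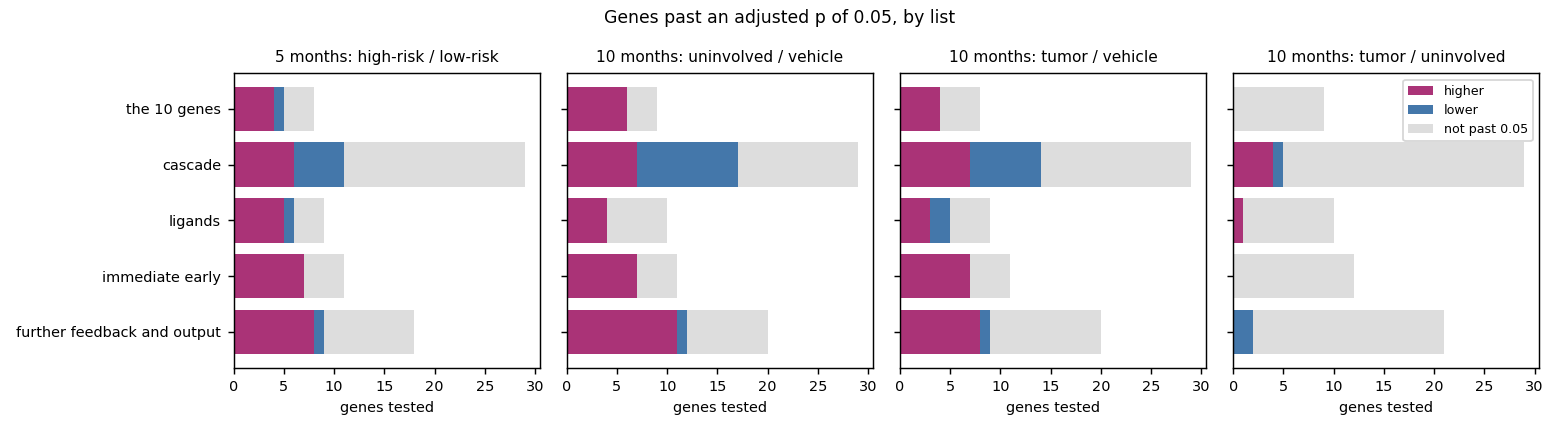
Number of genes tested (x axes) that were higher, lower or not past an adjusted p of 0.05 in edgeR, for the 10 genes and 4 further pathway lists (rows) in 4 comparisons (panels). Immediate early genes were higher in 7 of 11 in the first 3 panels and in 0 of 12 in tumor against uninvolved liver. The row of the 10 genes is drawn with Etv4 in uninvolved against vehicle liver, as 6 higher of 9. It is also drawn with Etv4 in tumor against uninvolved liver, with 0 of 9 past the threshold. Across the 4 panels 38.9%, 57.7%, 45.9% and 18.1% of all genes were called in either direction.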

How the data were processed

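Per the labels' protocols, liver RNA went through RNeasy columns and DNase, and a TruSeq Stranded Total RNA kit made the libraries. The deposited table holds whole-number counts of each gene; the authors used Trim Galore, HISAT2 and featureCounts on mm10, per the submitters' processing notes, with no versions, and ComBat-seq batch adjustment, per the file's name, which can move counts between batches. The strand setting is not given in the sources used here. All 55536 gene IDs matched GENCODE M21.

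The 2 libraries of 3-week vehicle mouse 3, and uninvolved libraries 3 and 6 (index of dispersion 1.24 against 3.14 or more in the other within-group pairs), were summed, which left 73 samples. edgeR 4.0.16 in R 4.3.3 was used with filterByExpr, TMM factors, quasi-likelihood F tests (robust) and p-values adjusted by Benjamini-Hochberg over all genes tested. SEs are implied by F. Each age had 1 fit for its non-tumor groups, with batch as a covariate at 5 months, and tumors were fitted with 1 other group at a time. The fits were tested on simulated counts. Promoters are RefSeq's, build GRCm38.p6.

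Named genes are the 10 members, up to 3 genes of each further pathway list with the smallest adjusted p in tumor against vehicle and in 5-month high-risk against low-risk livers, and the 5 genes of highest Pearson r with the members' mean. Members and lists were chosen with earlier results of these data known. Same-numbered tumor and uninvolved libraries came from the same mouse by their titles; of 6 pairs 1 had a correlation of deviations over 0.1 (lowest -0.209). Among other groups that share numbers, only 5-month high-risk and vehicle samples deviated together in every pair (correlations 0.12 to 0.346 over 3 pairs). Alternatives were RLE factors, no count filter, DESeq2 1.42.0, single batches, no batch term, other pooling of libraries, other fits, replicate blocks, samples left out, and library totals without TMM factors, which was added after the data were seen.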

Additional observations from a re-analysis of the deposited data

Results flagged for a closer look

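Of 72 sets of 1 gene in 1 group of 4 to 10 samples, 8 held a sample set apart from the others by a large gap relative to the range of the group, where chance gives about 1 in 20. For Spry4 these were 5-month vehicle 8 (29.3 CPM, with the next at 11.1), 10-month low-risk 8 (13 CPM, next 6.67) and tumor 7 (9.75 CPM, next 5.71). For Spry1 they were 5-month vehicle 9 (1.29 CPM, next 4.26) and 3-week vehicle 5 (14.3 CPM, next 10.5). For Etv4 they were 5-month vehicle 9 (3.01 CPM, next 0.715), the library labelled 3-week TBT 4 (0.908 CPM, next 0.361) and uninvolved liver 7 (0.703 CPM, next 0.455). Vehicle 9 of 5 months had the lowest total of all libraries, 2831666 counts.

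The tumor-labelled vehicle library, which was used in none of the comparisons, was above all 6 vehicles of 10 months in 5 genes, of which Etv4 had 3 counts, the limit that a count of 0 allows, against 5 in the deeper vehicle 5. It held 3.74 CPM of Dusp4 (highest vehicle 2.73), 2.59 CPM of Dusp5 (0.604), 9.69 CPM of Spry1 (5.11), 0.229 CPM of Etv4 (0.192) and 6.41 CPM of Etv5 (5.22). It is 1 library, so the difference has no replicate check. The share of all genes that lay above all 6 vehicles in this library was not counted, so the 5 genes are no result about the members as a set.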

How the results depend on the processing

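Over the alternatives, 135 of 156 counts of called genes stayed within 1.5 times their main value. These include counts of 0 that stayed at 0, among them all 11 fits of 10-month low-risk against vehicle livers that left out 1 sample. A count can also stay the same while the genes called change. No gene result past the threshold changed its direction. Of 1331 gene results 46 lost their call and 42 gained one. In 5-month high-risk against vehicle livers the 3 calls became 1 without a count filter, 5 with library totals, 0 within batch 1 and 0 with a replicate block. High-risk against low-risk livers kept 1 of 5 calls within batch 1. In tumor against uninvolved liver the 0 calls became 1 with DESeq2, 1 with libraries 3 and 6 separate, 2 in a fit of all 10-month groups, and, with a replicate block for the mouse, 1 over 6 mice and 2 over 4. Tumor against low-risk livers had 6 calls with library totals. With the tumor-labelled vehicle library among the vehicles, calls left were 3 in uninvolved livers (with Etv4), 2 in tumors and 0 in vehicles of 10 against 5 months. The latter comparison had 0 calls without a count filter, 1 with library totals and 1 with a replicate block. In comparisons whose numbers do not pair the samples, a block ended the tumor against vehicle call of Spry1 (adjusted p = 0.0606) and, in uninvolved livers, those of Dusp4, Spry2 and Etv5, while Dusp6 was called there (log2 fold change -0.50, adjusted p = 0.0275). Leaving out 1 sample at a time gave 2 to 6 calls in uninvolved against low-risk livers, 4 to 6 against vehicles (6 of 9 with Etv4 in the full set), 0 to 1 in tumor against uninvolved liver, 4 to 5 in tumor against vehicle and 3 to 4 against low-risk livers; the lowest of the first range is without 3+6. Where no value above shows a cause, the cause was not tested. Over all genes, calls in 5-month high-risk against vehicle livers went from 2341 to 1211 without a count filter, 4947 with library totals, and 0 within batch 1 or with the block, and those against low-risk livers from 5745 to 773 within batch 1. Tumor against uninvolved liver went from 2961 to 5346 in the fit of all groups, 1920 with the block over 6 mice and 1580 to 1611 without uninvolved 1, 5 or 7. With the tumor-labelled library among the vehicles, calls went from 9427 to 6019 in uninvolved livers, from 7016 to 4206 in tumors (3972 with a block) and from 2107 to 671 in vehicles of 10 against 5 months. The last had 1128 without a count filter, 3438 with DESeq2 and 3700 without the deviating libraries, and vehicles of 5 months against 3 weeks 2172 without a count filter and 5757 without those libraries, against 3616. The interaction went from 62 to 10 without a count filter, 96 with RLE factors, 106 with library totals, 204 without the deviating libraries and 359 with DESeq2. Of 0 calls, low-risk against vehicle livers of 5 months had 20 without the batch term and 1 with library totals or without the deviating libraries, and 3-week livers 3 without a count filter. Low counts limit Etv4 and Fosl1, and Dusp5 in vehicles of 10 months.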
